A study of Mus musculus with 12 samples.

Results

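The 10 genes described here encode the cell's sensors of viral and other foreign RNA and the oligoadenylate synthetase (OAS) family: the RIG-I-like receptors Ddx58, Ifih1 and Dhx58, the endosomal receptor Tlr3, the kinase Eif2ak2 (PKR), the synthetases Oas1a, Oas2 and Oas3, and the OAS-like genes Oasl1 and Oasl2. They were taken by gene symbol from 20325 genes, and all 10 were among the 13936 genes with enough counts to be tested. Their RNA was measured by RNA sequencing of polyadenylated RNA in 6 groups of mouse embryonic fibroblasts (MEFs) and cells made from them, with 2 libraries per group and 14602536 to 22800753 counts per library. Every group carried floxed AF10 alleles (AF10 fl/fl; the gene is named Mllt10 in the files), an inducible OSKM cassette that encodes the reprogramming factors Oct4, Sox2, Klf4 and Myc, and rtTA, the activator that doxycycline switches on. Cells given the Cre adenovirus Ad5-CMV-Cre are called AF10-deleted, and cells given the empty adenovirus Ad5-CMV-Empty are called control cells. The groups were AF10-deleted cells on day 4 of reprogramming in SGC0946 at 5 µM, an inhibitor of the histone methyltransferase DOT1L, AF10-deleted cells on day 4 in the solvent DMSO, control cells on day 4 in SGC0946, control cells on day 4 in DMSO, AF10-deleted MEFs and control MEFs.

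Reprogramming began 2 days after the virus, with doxycycline at 2 µg/mL. The day 4 cells were grown in embryonic stem cell medium with LIF on gelatin and DR4 feeder MEFs, and the MEFs in MEF medium. Medium, feeders, doxycycline and time since the virus therefore cannot be told apart in comparisons of day 4 with MEFs. No group without floxed alleles received Cre and no group went without virus, so AF10 deletion and exposure to Cre cannot be told apart either. The labels number the 2 libraries of each group (the first and second replicates below) and do not say what the numbers mark. Libraries of the same number were treated as 1 source of cells, from the counts and correlations given with the processing below. A fit that compared libraries within each number is called the paired fit. It is given where its calls differ from those of the fit without pairing. The labels do not say how many animals the cells came from. Without pairing, p-values measure the spread between these libraries. In the paired fit they measure the spread left after the difference between replicate numbers is taken out. Neither measures the spread between animals.

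Mllt10 stood at 35.4 and 34.4 CPM (counts divided by library size, with sizes scaled by TMM factors) in AF10-deleted MEFs, against 43.1 and 45.4 in control MEFs. On day 4 it stood at 40.5 to 44.2 CPM in the 4 AF10-deleted libraries and at 54.1 to 61.4 in the 4 control libraries, so no AF10-deleted library reached a control library of its stage. These are counts over the whole gene, and how far they measure the loss of AF10 was not tested. Summed over 10 fibroblast markers, which include collagens and Thy1, levels were 16541 to 19455 CPM in the day 4 libraries and 47195 to 65031 CPM in MEFs, with none of the 10 at 0 in any library. Summed over 10 macrophage markers they were 51.6 to 76.6 CPM on day 4 and 5.95 to 14.3 CPM in MEFs, with 1 marker at 0 in 1 MEF library and none at 0 in the others. The part of these shifts in the results below was not tested.

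RIG-I, the product of Ddx58, and MDA5, the product of Ifih1, are RNA helicases that bind viral RNA in the cytoplasm and signal through the mitochondrial adaptor Mavs to switch on interferon genes. LGP2, from Dhx58, is a related helicase without their signalling domains that tunes their activity. TLR3 recognises RNA duplexes in endosomes and signals through Ticam1. PKR shuts down translation by phosphorylating the initiation factor eIF2 when it binds duplex RNA, and OAS enzymes bound to such RNA make oligoadenylates, a second messenger of the antiviral response. All 10 genes are known targets of interferon, which raises their transcription, and fibroblasts are a classic cell type for this response.

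Proteins of the IRF family bind DNA with paired GAAA half-sites, so promoters were searched for the letters GAAANNGAAA on both strands. RefSeq's promoter table for GRCm38.p6, a later build than the mm9 that the submitters' processing notes name, held 8 of the 10 genes, each as 250 bases before to 50 bases after the start of transcription. A match was present in 5 of the 8 (Ddx58, Ifih1, Eif2ak2, Oas1a and Oas3) and absent in 3 (Tlr3, Oasl1 and Oasl2), and 3.44% of all 32851 promoters in the table held one. Dhx58 and Oas2 are the 2 members named only. Shown 5′ to 3′ along the gene are 150 bases, from 120 before to 30 after the start, of 5 members that span the range of changes below, with matches in capitals. The window of Oasl2 lies at chr5:114896814-114896963 on the plus strand. Those of the others lie on the minus strand, at chr5:120907496-120907645 for Oas1a, chr4:40239796-40239945 for Ddx58, chr17:78882543-78882692 for Eif2ak2 and chr5:120777630-120777779 for Oas3.
Oasl2: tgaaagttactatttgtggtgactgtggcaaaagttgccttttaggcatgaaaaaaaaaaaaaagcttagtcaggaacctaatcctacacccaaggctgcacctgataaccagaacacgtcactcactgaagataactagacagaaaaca
Oas1a: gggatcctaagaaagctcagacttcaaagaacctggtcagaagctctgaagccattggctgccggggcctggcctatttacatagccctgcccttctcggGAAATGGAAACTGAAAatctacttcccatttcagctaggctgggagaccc
Ddx58: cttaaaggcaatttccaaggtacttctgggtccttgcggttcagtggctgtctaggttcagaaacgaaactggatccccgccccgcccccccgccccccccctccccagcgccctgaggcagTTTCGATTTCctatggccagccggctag
Eif2ak2: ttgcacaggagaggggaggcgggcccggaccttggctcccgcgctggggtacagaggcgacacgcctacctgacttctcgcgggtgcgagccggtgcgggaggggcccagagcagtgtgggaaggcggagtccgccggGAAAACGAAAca
Oas3: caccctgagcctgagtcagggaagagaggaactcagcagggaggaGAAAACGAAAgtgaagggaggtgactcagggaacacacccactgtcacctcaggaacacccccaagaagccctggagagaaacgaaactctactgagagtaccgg
Oas1a held 2 overlapping matches, which began 20 and 14 bases before the start. The single match of Oas3 began 75 bases before the start, those of Ddx58 and Eif2ak2 began at bases 3 and 19 of the transcript, and that of Ifih1 began at base 33. In Ddx58 the match reads TTTCGATTTC, on the opposite strand. A match is a description of the letters and not a site of binding, and the 3 promoters without one lack only these letters in this window. In the same assembly's order of protein-coding genes Oas2 and Oas3 are neighbours on chromosome 5, with 5 other Oas1 genes between Oas3 and Oas1a, and Oasl2 and Oasl1 are neighbours on the same chromosome, with 60 coding genes between Oasl1 and Oas2.

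Levels can be compared between genes as TPM, which divide by transcript length as well as by library size. On day 4 Eif2ak2 and Ddx58 were the leading pair in all 4 groups. In AF10-deleted cells in DMSO Eif2ak2 averaged 24.2 ± 2.04 TPM and Ddx58 20.4 ± 1.68 (SD, n = 2). Oas2 followed at 6.41 ± 0.495, with a range that overlapped that of Oas1a at 5.79 ± 0.679, and Oasl1 was last at 0.115 ± 0.0919. In control cells in DMSO Eif2ak2 led at 25.7 ± 3.94 TPM and Ddx58 followed at 21.2 ± 2.91, with overlapping ranges. Oas1a came next at 6.64 ± 0.0354, above Oasl2 at 4.89 ± 0.325 and Oas2 at 4.6 ± 0.792, whose ranges overlapped, and Oasl1 was last at 0.255 ± 0.0354.

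The order in MEFs was different, with Oasl2 at the top. In AF10-deleted MEFs it had 194.8 ± 13.9 TPM, Eif2ak2 120.7 ± 6.08 and Ddx58 101.2 ± 7.37, and Oas3 was last at 1.16 ± 0.0636. In control MEFs Oasl2 had 318.9 ± 5.6 TPM, Eif2ak2 147.1 ± 7.76 and Ddx58 134.4 ± 12.2. Next in control MEFs came Oas1a at 95.4 ± 7.78, Dhx58 at 56 ± 3.15, Ifih1 at 36.2 ± 0.58 and Tlr3 at 19 ± 0.905, then Oas2 and Oasl1, both averaging 16.5, and Oas3 at 2.34 ± 0.0919. The order of mean levels was the same in both genotypes. In control MEFs the ranges of Eif2ak2 and Ddx58 overlapped, as did those of Oas2 and Oasl1, and no other neighbours did, while in AF10-deleted MEFs those of Oas2 and Oasl1 were the overlapping neighbours.

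**Figure D1:**
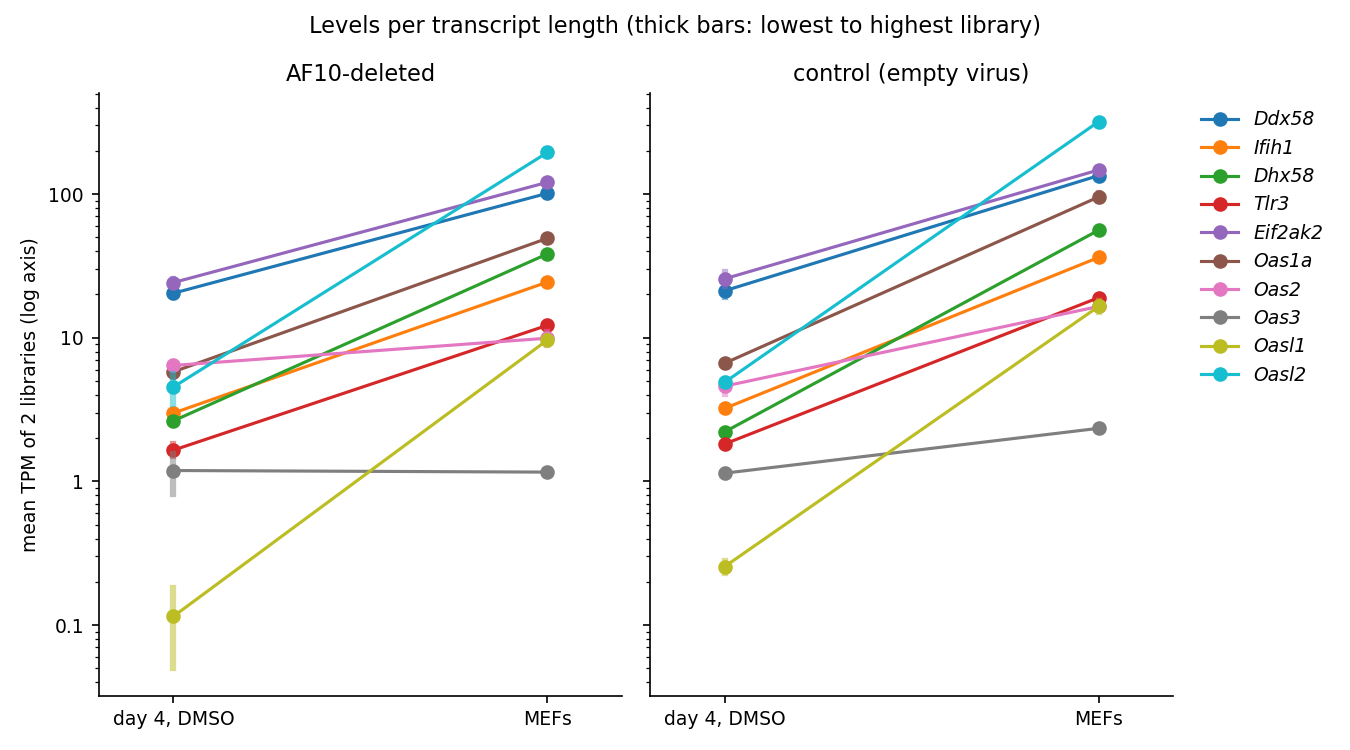
Mean TPM of the 10 genes on a log axis in day 4 cells in DMSO and in MEFs, for AF10-deleted cells (left) and control cells (right), with thick bars from the lowest to the highest of 2 libraries. Oasl2 is the top gene in MEFs and lies below Eif2ak2, Ddx58 and Oas1a on day 4, and the line of Oas3 is flat in AF10-deleted cells.

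Day 4 of reprogramming was compared with MEFs of the same genotype, both without SGC0946. In AF10-deleted cells 9 of 10 genes were lower on day 4, the exception being Oas3, where 27.5% of all tested genes were lower, and in control cells all 10 were lower, where 26.3% of all tested genes were (edgeR, adjusted p below 0.05). In control cells the edgeR falls of the genes apart from Oasl1 ran from 1.93-fold for Oas3 to 61.6-fold for Oasl2. Oasl1 had few counts, and its fall is given as a ratio of summed counts scaled by library size. That ratio was 62.1-fold (95% exact counting interval 33.5 to 130), so its order relative to Oasl2 was not resolved. In bulk RNA, fewer cells of a type and less RNA per cell cannot be told apart.

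Ddx58 had 48.9 and 53.8 CPM in AF10-deleted day 4 cells, against 222 and 235.2 CPM in AF10-deleted MEFs, and 46.7 and 54.8 CPM in control day 4 cells, against 289.9 and 319.3 CPM in control MEFs. The 4 day 4 libraries lay close together and far below all 4 MEF libraries. The fall was 4.45-fold in AF10-deleted cells (log2 change -2.15 ± 0.13, SE, adjusted p = 1.41e-06, edgeR) and 5.99-fold in control cells (-2.58 ± 0.13, adjusted p = 4.81e-07, edgeR).

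Ifih1 had 8.65 and 8.16 CPM in AF10-deleted day 4 cells, against 63.9 and 59.5 CPM in AF10-deleted MEFs. In control cells it had 8.44 and 8.8 CPM on day 4, against 92.1 and 91.3 CPM in MEFs. The MDA5 gene thus fell by 7.34-fold and 10.6-fold, and the log2 changes were -2.88 ± 0.13 and -3.41 ± 0.13 in AF10-deleted and control cells.

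Dhx58 also fell. It had 3.17 and 3.24 CPM in AF10-deleted day 4 cells, against 43.5 and 40 CPM in AF10-deleted MEFs, and 2.7 and 2.43 CPM in control day 4 cells, against 59.8 and 62.7 CPM in control MEFs. The groups did not overlap, and the fall was 13-fold in AF10-deleted cells and 23.9-fold in control cells (log2 change -3.7 ± 0.15 and -4.58 ± 0.16).

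Tlr3 had 4.03 and 3.24 CPM in AF10-deleted day 4 cells, against 25.9 and 22.2 CPM in AF10-deleted MEFs. Control cells had 4.02 and 3.62 CPM on day 4, against 36.9 and 38.2 CPM in MEFs. Its falls of 6.63-fold and 9.83-fold lay near those of Ifih1. Eif2ak2 had 50.6 and 55.9 CPM in AF10-deleted day 4 cells, against 235.4 and 241.6 CPM in AF10-deleted MEFs, and 49 and 58.8 CPM in control day 4 cells, against 285.2 and 297.7 CPM in control MEFs. PKR's gene fell 4.48-fold in AF10-deleted cells and 5.4-fold in control cells.

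The OAS genes spread over the widest range. Oasl2, which in mouse encodes an active synthetase with ubiquitin-like domains, had 5.55 and 8.83 CPM in AF10-deleted day 4 cells, against 298.5 and 257.8 CPM in AF10-deleted MEFs. It had 7.18 and 7.61 CPM in control day 4 cells, against 469.1 and 443.4 CPM in control MEFs. All 4 day 4 libraries lay far below all 4 MEF libraries, and the log2 changes were -5.26 ± 0.32 (adjusted p = 5.18e-06, edgeR) and -5.94 ± 0.33 (adjusted p = 2.9e-06, edgeR).

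Oasl1 encodes an OAS-like protein without synthetase activity that, in mouse, restrains translation of Irf7. It rested on 3 and 1 counts in AF10-deleted day 4 cells, against 148 and 185 counts in AF10-deleted MEFs, and on 5 and 5 counts in control day 4 cells, against 248 and 280 in control MEFs. Scaled by library size its summed counts were 1.33% of the MEF level in AF10-deleted cells (95% exact interval 0.36% to 3.43%) and 1.61% in control cells (0.767% to 2.98%), intervals that cover counting error only. With 1 to 7 counts in each day 4 library, differences of Oasl1 among the day 4 groups were not detectable at this depth.

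Oas1a, an active synthetase among the mouse Oas1 copies, had 5.08 and 5.86 CPM in AF10-deleted day 4 cells, against 42.4 and 41.1 CPM in AF10-deleted MEFs. In control cells it had 6.09 and 5.91 CPM on day 4, against 77.8 and 84.5 CPM in MEFs. The falls were 7.6-fold and 13.5-fold in AF10-deleted and control cells.

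Oas2 and Oas3, neighbours in the genome, showed the smallest changes. Oas2 had 12 and 13.1 CPM in AF10-deleted day 4 cells, against 19.8 and 15.2 CPM in AF10-deleted MEFs, and 9.82 and 7.43 CPM in control day 4 cells, against 30.6 and 27.9 CPM in control MEFs. Its fall was 1.39-fold in AF10-deleted cells (log2 change -0.47 ± 0.17, adjusted p = 0.0357, edgeR) and 3.4-fold in control cells (-1.76 ± 0.17, adjusted p = 2.87e-05, edgeR). The Oas2 call in AF10-deleted cells was lost when the first replicate of AF10-deleted MEFs was left out (-0.28, adjusted p = 0.235, edgeR), or either AF10-deleted DMSO library (-0.41 without the first and -0.54 without the second), or either AF10-deleted SGC0946 library (-0.47 both times, adjusted p up to 0.0528).

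Oas3 had 1.98 and 3.69 CPM in AF10-deleted day 4 cells, against 2.69 and 2.35 CPM in AF10-deleted MEFs, so those groups overlapped (log2 change 0.18 ± 0.29, adjusted p = 0.619, edgeR). Control cells had 2.53 and 2.7 CPM on day 4, against 5.28 and 4.85 CPM in MEFs, a 1.93-fold fall (-0.95 ± 0.28, adjusted p = 0.0172, edgeR). This call for Oas3 was lost without the first replicate of control MEFs (-0.89) or either control DMSO library (-0.89 without the first and -0.99 without the second), and its sign in AF10-deleted cells turned to -0.34 without the second DMSO library. Oas3 had 30.3 to 89 counts per library, the lowest of the 10 genes in MEFs.

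**Figure D2:**
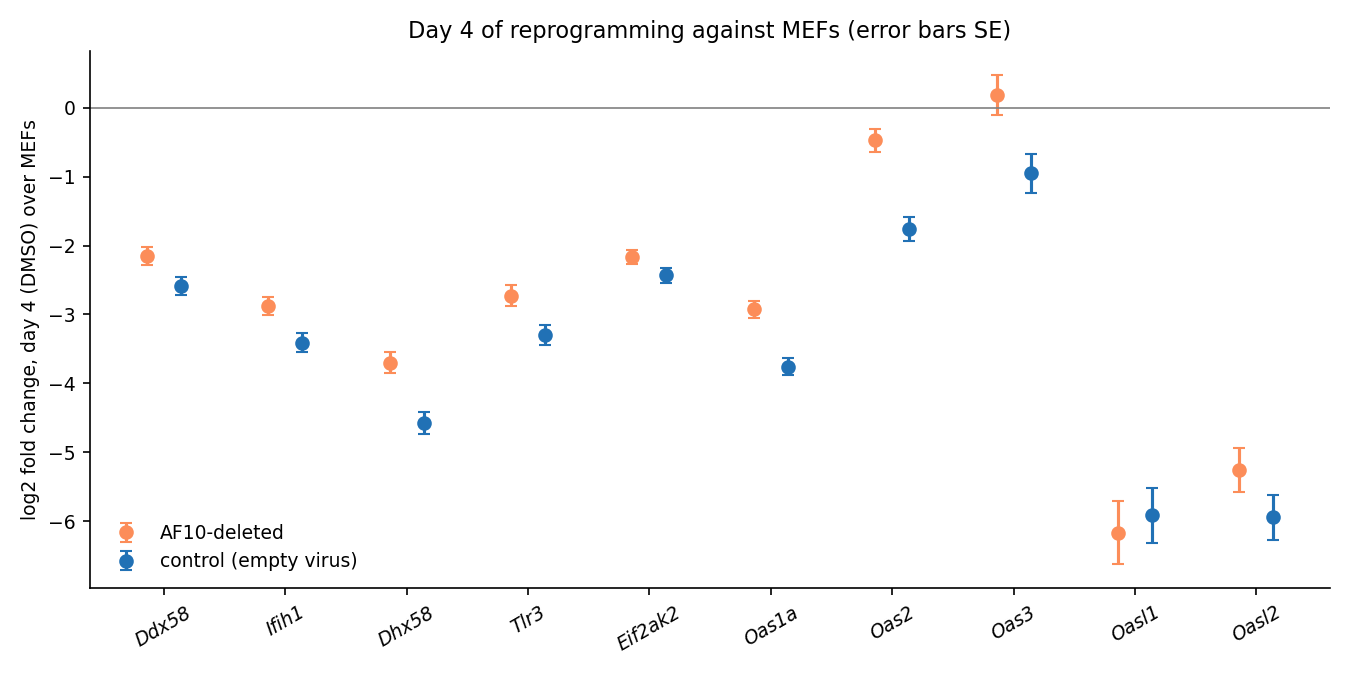
The log2 fold change of day 4 cells in DMSO over MEFs for each gene, in AF10-deleted cells (left point of each pair) and control cells (right point), with SE bars from the fit without pairing. Oasl1 and Oasl2 lie lowest, Oas2 and Oas3 lie highest, and the AF10-deleted point is the higher one for every gene except Oasl1.

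In the paired fit 9 members were lower on day 4 in AF10-deleted cells, where 31% of all tested genes were, and 10 in control cells, where 30.2% were. The members' median log2 change was -2.8 in AF10-deleted cells and -3.35 in control cells, against 0.02 and 0.01 over all genes tested. The share of all genes whose libraries all lay lower on day 4 was 37.7% in AF10-deleted cells and 37.9% in control cells. Summed over the 10 members, levels were 136.8 to 168.5 CPM in the day 4 libraries, 964.2 and 923.4 CPM in AF10-deleted MEFs and 1361 and 1387 CPM in control MEFs.

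The genes around the sensors did not all move with them. In AF10-deleted cells 3 of 6 tested genes of the OAS pathway list were lower on day 4, 8 of 13 other sensors were lower and 1 higher, 4 of 23 adaptor genes were lower and 7 higher, 6 of 12 PKR genes were lower and 2 higher, and 8 of 16 interferon signal genes were lower and 2 higher. Over all 13936 genes tested, 3832 were lower and 3833 higher in AF10-deleted cells, and 3659 were lower and 3588 higher in control cells. The values that follow are those of control cells. Of the 6 tested genes of the OAS pathway list 3 fell, among them Oas1b, the flavivirus resistance gene, which changed by -2.05 ± 0.14 on the log2 scale, and the Oas1 copy Oas1g, which changed by -4.67 ± 0.64. Reads of Oas1a, Oas1b and Oas1g may be split between near copies. Ddx58, Eif2ak2, Oas1a and Oas3 had non-whole expected counts in all 12 libraries, which can mark reads shared with other genes. Oasl2 had them in 8 libraries, Ifih1 in 5, Dhx58 in 3, Tlr3 in 2 and Oas2 in 1. How many reads were shared was not tested. Of 13 other RNA and DNA sensors, 8 fell and 1 rose; the RNA-binding antiviral gene Ifit3 changed by -6.77 ± 0.3, the helicase gene Ddx60 by -5.03 ± 0.27, the RNA-editing enzyme gene Adar by -2 ± 0.08 and the helicase gene Dhx9 by 0.28 ± 0.08.

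Below the receptors, 7 of 23 genes for adaptors, ligases and kinases rose and 5 fell, shares near those of all genes. Mavs, the adaptor of RIG-I and MDA5, was among those that rose (1.23 ± 0.11), with a range of 73.1 to 80.7 CPM in AF10-deleted day 4 cells, against 31.1 to 36.6 CPM in AF10-deleted MEFs, and of 77.9 to 85.5 CPM in control day 4 cells, against 32.5 to 36.9 CPM in control MEFs. Tmem173, the adaptor STING of the DNA sensor cGAS, rose by 1.73 ± 0.23, and Rnf125, a ligase that marks RIG-I for degradation, by 3.17 ± 0.38. Irf7, the interferon-induced factor that amplifies interferon genes, fell (-5.13 ± 0.23), as did the RIG-I ligases Trim25 (-0.8 ± 0.11) and Rnf135 (-0.62 ± 0.11). Of 12 genes around PKR and eIF2, 6 fell and 3 rose. Among these the eIF2 kinase gene Eif2ak3 (PERK) changed by -0.85 ± 0.08 on the log2 scale, the phosphatase subunit gene Ppp1r15a changed by -1.31 ± 0.12 and the stress factor gene Ddit3 by -1.71 ± 0.18, while the PKR activator Prkra rose by 0.53 ± 0.09.

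Of 16 tested genes for interferon receptors and their signal, 8 fell and 1 rose. The transcription factor gene Stat2 (-3.38 ± 0.09) and the feedback protease gene Usp18 (-5.64 ± 0.19) fell, and Socs3, a feedback inhibitor of cytokine signalling, rose (1.07 ± 0.1). Ifnb1, the Ifna genes listed and Ifng did not pass the filter on low counts. In the macrophage list 3 of 9 tested genes rose in AF10-deleted cells and 5 in control cells, and in the fibroblast list 8 of 10 fell and Vim rose in both.

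The next comparison asked what AF10 deletion did before reprogramming. In the paired fit all 10 genes were lower in AF10-deleted MEFs, by 1.22-fold for Eif2ak2 to 2.01-fold for Oas3, where 0.84% of all genes were called lower. In the fit without pairing none of the 10 was called, and 0% of the 13936 genes were (edgeR), although all 10 had an unadjusted p below 0.05, limma called none and DESeq2 called 2 of them, Ifih1 (adjusted p = 0.0491) and Oas1a (adjusted p = 1.42e-06). The members' median log2 change was -0.68, against 0 over all genes tested. For all 10 both AF10-deleted libraries lay below both control libraries, as 10.8% of all genes did.

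Among the helicases, Ifih1 had 63.9 and 59.5 CPM in AF10-deleted MEFs, against 92.1 and 91.3 CPM in control MEFs. That left 69.4% of the control level in the first replicate and 65.1% in the second, a log2 change of -0.57 ± 0.09 (adjusted p = 1.41e-04, paired edgeR fit). Ddx58 kept 76.6% and 73.7% of its control level in the 2 replicates (-0.41 ± 0.07, adjusted p = 4.61e-04, paired edgeR fit), and Dhx58 kept 72.8% and 63.8% (-0.55 ± 0.1, adjusted p = 0.001). Tlr3 kept 70.3% and 58.1% (-0.65 ± 0.1), and Eif2ak2, the least changed, kept 82.5% and 81.1% (-0.29 ± 0.06, adjusted p = 0.0127, paired edgeR fit). The kinase and RIG-I genes were thus the closest to their control level in both replicates.

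Among the OAS genes, Oas1a had 42.4 and 41.1 CPM in AF10-deleted MEFs, against 77.8 and 84.5 CPM in control MEFs, and kept 54.6% and 48.6% (-0.96 ± 0.09, adjusted p = 1.84e-07, paired edgeR fit). Oas3 kept 51.1% and 48.4% on low counts (-1.01 ± 0.22, adjusted p = 0.0143, paired edgeR fit). Oas2 kept 64.8% and 54.7% (-0.75 ± 0.12), Oasl2 63.6% and 58.1% (-0.72 ± 0.08, adjusted p = 5.91e-06, paired edgeR fit) and Oasl1 67.8% and 50.1% (-0.79 ± 0.15). For comparison, counts over the whole of the targeted gene Mllt10 kept 82.1% and 75.9%. In both replicates 9 of the 10 members, all except Eif2ak2, kept less of their control level than that. How far whole-gene counts of Mllt10 measure the loss of AF10 was not tested, so no strength of response relative to that loss follows.

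With 2 pairs these calls rest on the agreement of the pairs and on the spread shared across genes. In the paired fit, leaving out either MEF library of a pair leaves the change to the other pair alone. The equal values either way are therefore 1 calculation and not 2 checks. Without the second replicate of control MEFs or of AF10-deleted MEFs only Oas1a and Oasl2 were called, while Ddx58 stood at -0.38, Ifih1 at -0.53, Dhx58 at -0.46, Tlr3 at -0.51, Eif2ak2 at -0.28, Oas2 at -0.63, Oas3 at -0.97 and Oasl1 at -0.56 either way. Without the first replicate of either group 8 remained past the threshold and Eif2ak2 (-0.3) and Oas3 (-1.05) did not.

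**Figure D3:**
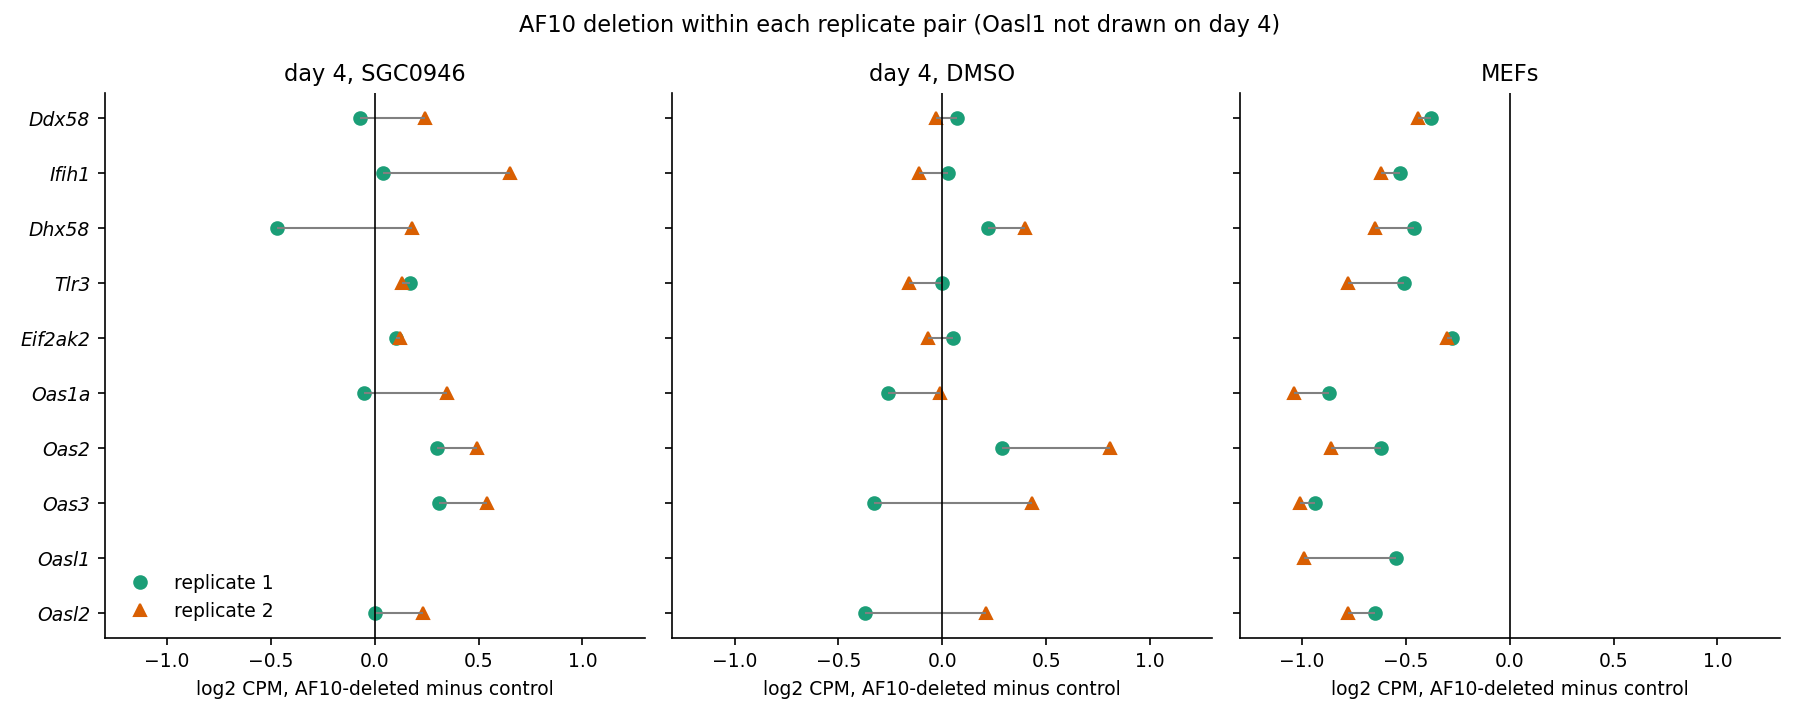
Log2 CPM of AF10-deleted minus control cells within replicate 1 (circles) and replicate 2 (triangles), on day 4 in SGC0946, on day 4 in DMSO and in MEFs, without Oasl1 on day 4. In MEFs every point lies left of 0, from -0.28 to -1.04, and on day 4 the points lie on both sides.

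In the paired fit in MEFs, of 13 other sensors 8 fell and none rose, among them Ifit1 (-0.55 ± 0.08), Ifit2 (-0.54 ± 0.08) and Ifit3 (-0.63 ± 0.09), which encode proteins that bind foreign RNA. Of 16 interferon signal genes 4 fell and 12 did not pass, with those that fell including Usp18 (-0.49 ± 0.07) and the ubiquitin-like modifier Isg15 (-0.49 ± 0.08). None of the 6 OAS pathway genes, the 23 adaptor genes or the 12 PKR genes passed the test, with 5, 3 and 0 of them at an unadjusted p below 0.05. None of the macrophage, fibroblast or reprogramming markers passed either, and the macrophage sum was 14.3 and 6.26 CPM in AF10-deleted MEFs, against 11.7 and 5.95 CPM in control MEFs.

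On day 4 in DMSO no member was called lower in AF10-deleted cells in either fit. No member was called in the fit without pairing (edgeR, 0% of all genes; 1 of 10 at an unadjusted p below 0.05, and 0 by DESeq2 and by limma). In the paired fit 1 of 10 was called higher, Oas2, where 3.37% of all genes were. Oas2 had 12 and 13.1 CPM in AF10-deleted cells, against 9.82 and 7.43 CPM in control cells. Both AF10-deleted libraries lay above both control libraries, and the log2 change was 0.56 ± 0.13 (adjusted p = 0.0111, paired edgeR fit). Without the second replicate of the control DMSO cells it was 0.35 (adjusted p = 0.394, paired edgeR fit), and without the second replicate of the AF10-deleted DMSO cells 0.39 (adjusted p = 0.257). Libraries of the 2 genotypes did not overlap for 4 members, 2 lower and 2 higher, where 20.3% of all genes lay wholly lower and 20.1% wholly higher. The other 9 genes had log2 changes between -1.03, for Oasl1 on its few counts, and 0.33, for Dhx58.

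In SGC0946 the effect of AF10 deletion reached no call for any member, either without pairing (edgeR, 0% of all genes) or in the paired fit (0.172% of all genes in either direction), with 2 of 10 at an unadjusted p below 0.05 in each fit and 0 by DESeq2 and by limma. Those 2 were Ifih1, with 10.5 and 13 CPM in AF10-deleted cells, against 10.2 and 8.24 CPM in control cells, and Oas2, with 11.1 and 11.1 CPM in AF10-deleted cells, against 8.96 and 7.91 CPM in control cells. Their log2 changes in the paired fit were 0.34 ± 0.13 for Ifih1 and 0.4 ± 0.14 for Oas2. Oas2 was therefore higher in AF10-deleted than in control cells in both replicates of both day 4 media.

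The difference between the AF10 effect on day 4 in DMSO and that in MEFs was tested directly. Without pairing no member was called (edgeR, 0% of all genes; 7 of 10 at an unadjusted p below 0.05, and 0 by DESeq2 and by limma). In the paired fit 4 of 10 were called, all with a higher value on day 4, where 0.933% of all genes were. Oas2 differed most, by 1.31 ± 0.18 on the log2 scale (adjusted p = 1.81e-04, paired edgeR fit), with 0.91 in the first replicate and 1.68 in the second. Oas1a differed by 0.83 ± 0.17 (adjusted p = 0.00945), Dhx58 by 0.88 ± 0.22 (adjusted p = 0.0413) and Ddx58 by 0.43 ± 0.1 (adjusted p = 0.032), all in the paired edgeR fit. The other 5 genes apart from Oasl1 had positive differences short of the threshold, from 0.27 ± 0.1 for Eif2ak2 to 1.14 ± 0.33 for Oas3, and Oasl1 had -0.24 ± 0.74.

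The Oas2 difference passed without any 1 library. That of Oas1a was lost without the second replicate of control MEFs (0.75), of AF10-deleted MEFs (0.75), of control DMSO cells (0.72) or of AF10-deleted DMSO cells (0.74). Those of Ddx58 (0.39 to 0.46) and Dhx58 (0.79 to 0.98) were lost without any 1 of the 8 libraries compared. The 4 groups enter both this difference and the comparisons of day 4 with MEFs above, so these are 1 set of values seen from 2 sides.

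**Figure D4:**
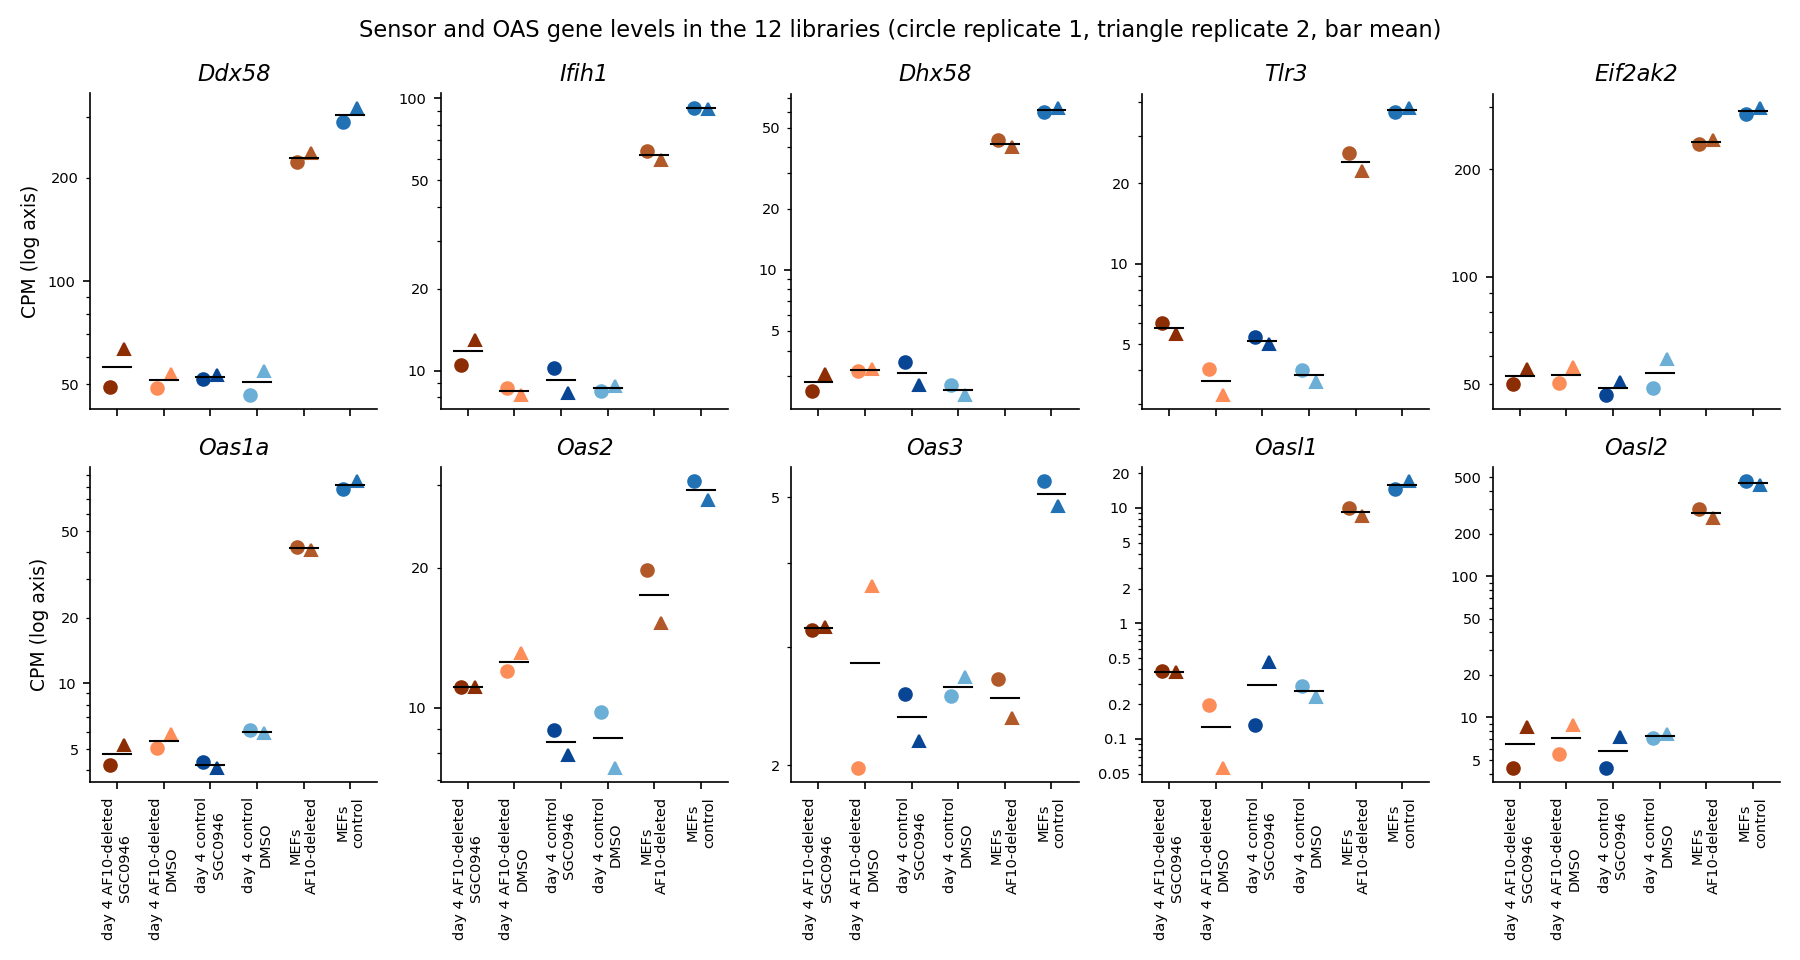
CPM of each gene on a log axis in all 12 libraries, with circles for replicate 1, triangles for replicate 2 and a bar at the mean of each group. The 4 MEF libraries lie at the right of each panel, above the day 4 libraries for all genes except Oas3, and AF10-deleted MEFs lie below control MEFs in each panel.

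SGC0946 was examined on day 4 against DMSO, in each genotype. Changes with SGC0946 were small beside each gene's own day 4 fall, apart from Oas2 and Oas3 in AF10-deleted cells. No member was called without pairing in either genotype. In AF10-deleted cells 0.00718% of all genes were called in that edgeR fit, with 3 of 10 members at an unadjusted p below 0.05 and 0 by DESeq2 and by limma. In control cells 1.11% were called, with 2 of 10 at an unadjusted p below 0.05 and 0 by DESeq2 and by limma.

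In the paired fit Oas1a fell with SGC0946 in control cells, 1 of 10 members where 7.1% of all genes were called lower. It had 4.38 and 4.09 CPM in SGC0946, against 6.09 and 5.91 CPM in DMSO, groups that did not overlap (-0.5 ± 0.16, adjusted p = 0.0258, paired edgeR fit). Of all genes, 24.2% likewise lay wholly lower with SGC0946 in control cells. Without the first DMSO replicate the Oas1a change was -0.41 and without the second -0.61, and without the first SGC0946 replicate -0.62 and without the second -0.38, none of which passed. In AF10-deleted cells Oas1a had 4.22 and 5.23 CPM in SGC0946, against 5.08 and 5.86 CPM in DMSO, and did not pass (-0.22 ± 0.16).

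In AF10-deleted cells 2 of 10 members rose with SGC0946 in the paired fit, where 5.28% of all genes were called higher. Tlr3 had 5.98 and 5.48 CPM in SGC0946, against 4.03 and 3.24 CPM in DMSO (0.66 ± 0.17, adjusted p = 0.0119, paired edgeR fit). Ifih1 had 10.5 and 13 CPM in SGC0946, against 8.65 and 8.16 CPM in DMSO (0.48 ± 0.13, adjusted p = 0.0214, paired edgeR fit). The SGC0946 libraries lay above the DMSO libraries for both genes, as they did for 19.4% of all genes. Without the first or second AF10-deleted DMSO replicate Ifih1 stood at 0.54 or 0.41 and Tlr3 at 0.76 or 0.57, without the first SGC0946 replicate Tlr3 stood at 0.68, and without the second Ifih1 at 0.26 and Tlr3 at 0.64, all past the threshold no longer. Tlr3 was also higher in SGC0946 in control cells, with 5.3 and 5.01 CPM in SGC0946, against 4.02 and 3.62 CPM in DMSO, short of the threshold (0.43 ± 0.17, adjusted p = 0.0751, paired edgeR fit).

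AF10-deleted cells in SGC0946 were also set against control cells in DMSO, a comparison that shares both groups with those above. No member was called without pairing (1.82% of all genes, edgeR; 3 of 10 at an unadjusted p below 0.05, and 0 by DESeq2 and by limma), and 3 of 10 were higher in the paired fit, where 12.3% of all genes were: Tlr3 (0.58 ± 0.16), Ifih1 (0.43 ± 0.13) and Oas2 (0.38 ± 0.14, adjusted p = 0.0491, paired edgeR fit). Oas2 was lost here without any 1 MEF library (0.38 each time), without the second control DMSO replicate (0.17) or without the first (0.45) or second (0.29) AF10-deleted SGC0946 replicate. Ifih1 was lost without the first (0.4) or second (0.46) control DMSO replicate and without the second AF10-deleted SGC0946 replicate (0.21). Tlr3 was lost without any 1 of these 4 libraries of the comparison (0.55 to 0.61). The interaction of AF10 deletion and SGC0946 on day 4 was not called for any member without pairing (edgeR, 0% of all genes) or in the paired fit (0.395% of all genes), with 0 of 10 at an unadjusted p below 0.05 in each and 0 by DESeq2 and by limma. Its values in the paired fit ran from -0.49 ± 0.28 for Dhx58 to 0.38 ± 0.19 for Ifih1, leaving out Oasl1.

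**Figure D5:**
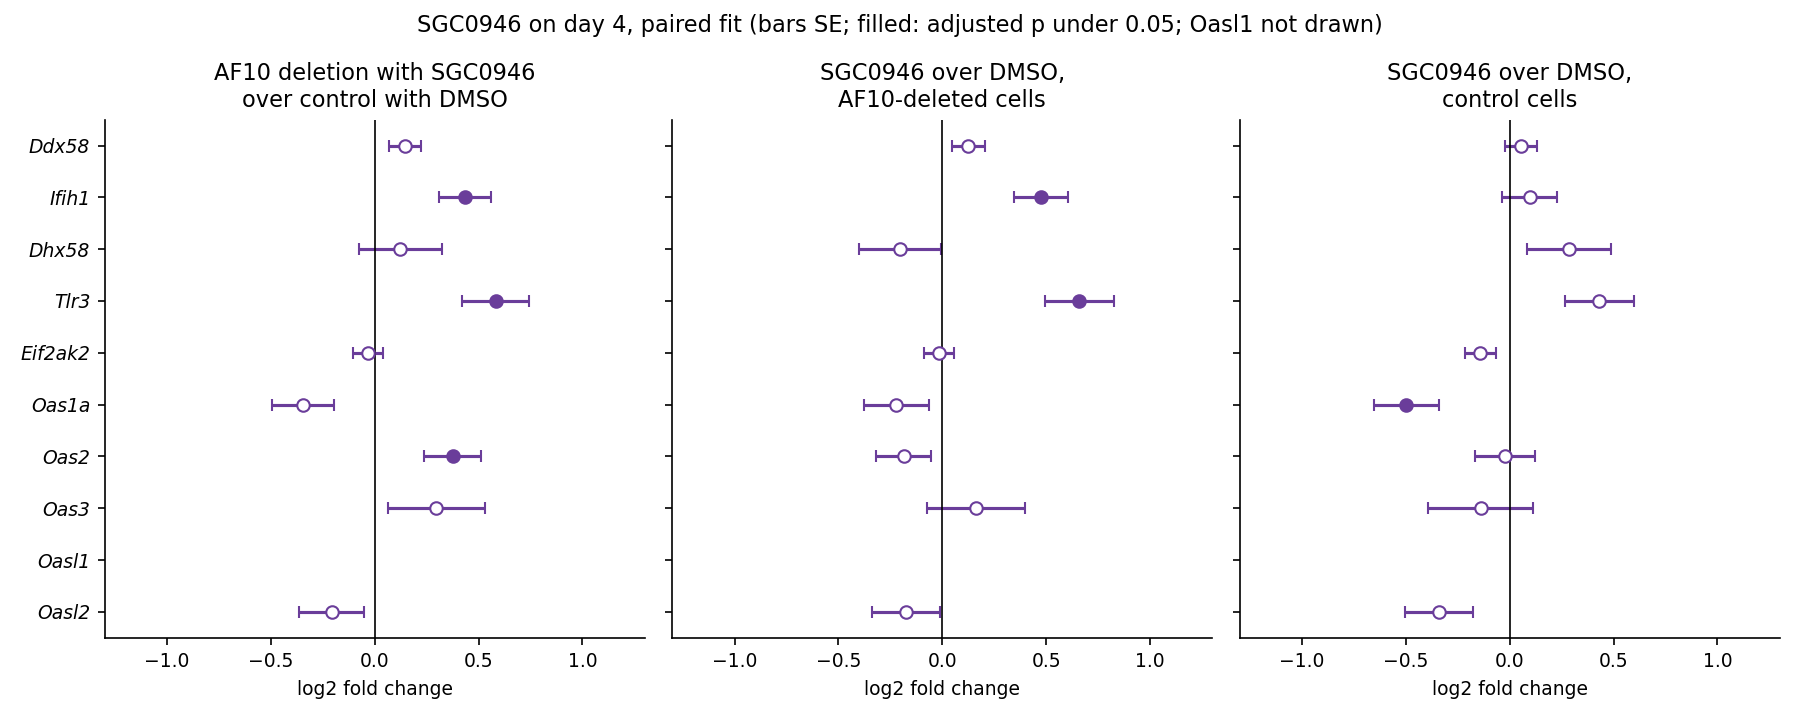
Log2 fold changes with SE bars in the paired fit for AF10-deleted cells in SGC0946 over control cells in DMSO, for SGC0946 over DMSO in AF10-deleted cells and for SGC0946 over DMSO in control cells, without Oasl1. Filled points, at an adjusted p below 0.05, are Ifih1 and Tlr3 on the left and in the middle, Oas2 on the left and Oas1a on the right.

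Around the sensors, the 1 adaptor gene called with SGC0946 in control cells without pairing was Unc93b1, the chaperone that carries TLR3 and other nucleic acid receptors to endosomes. In control cells its libraries spanned 28.5 to 32.9 CPM in SGC0946, against 11.8 to 16 CPM in DMSO (1.15 ± 0.2, adjusted p = 0.028, edgeR without pairing), and rose in AF10-deleted cells in the paired fit (0.83 ± 0.11, adjusted p = 8.23e-06, edgeR). The counts that follow are from the paired fit in control cells, in which 1480 of the 13936 genes tested rose and 990 fell; without pairing no other gene of the sensor, adaptor or interferon lists was called. There 2 of 23 adaptor genes rose and 4 fell, with Mavs (-0.3 ± 0.08) and Trim25 (-0.33 ± 0.08) among those that fell. Of 13 other sensors 2 rose and 1 fell there, with Ifi204 at 0.51 ± 0.1 and Ifit1 at -1.09 ± 0.16, and of 16 interferon signal genes 3 rose and 5 fell, with Socs3 at 0.48 ± 0.07 among those that rose. None of the 6 OAS pathway genes or 12 PKR genes passed there, with 1 and 4 of them at an unadjusted p below 0.05.

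Among all other genes, those whose levels followed the members most closely were found from log2 CPM centred on the mean of each stage, over the 12 libraries, against the mean of the 10 members' standardised profiles. The profile stood at -0.94 and -1.3 in AF10-deleted MEFs and at 1.05 and 1.2 in control MEFs. On day 4 it lay between -0.27 and 0.85, highest in the second replicate of AF10-deleted cells in SGC0946. The 6 nearest genes were Gm4902 (Pearson r = 0.907), Zfp750 (0.885), the interferon-inducible GTPase genes Gbp3 (0.878) and Gbp6 (0.873), Ltf (0.872), which encodes lactoferrin, and Zfp229 (0.867). The members themselves had r from 0.476 for Oasl1 to 0.887 for Ddx58. Each member is part of the profile, so part of its r is built in. These values describe 12 libraries that share groups.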

How the data were processed

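The authors deposited 1 table per library of expected counts (estimated by RSEM with Bowtie on mm9, per the submitters' processing notes; versions are not given in the sources used here) and TPM, per the file headers; the labels' protocols name a TruSeq RNA V2 kit, which does not mark strand. Expected counts were rounded. Genes that passed filterByExpr (13936 of 20325) entered edgeR 4.0.16 quasi-likelihood tests on all 12 libraries with TMM scaling, in R 4.3.3, and genes at a Benjamini-Hochberg adjusted p below 0.05 over all tested genes were called. SE values came from the F statistic. Names turned into dates were matched by transcript IDs.

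Same-numbered libraries deviated together in all 15 pairs of groups (correlations 0.286 to 0.737, at least 0.413 within a stage), and counts summed over 4 Y-linked genes were 4035 to 4780 in the first replicates and 8 to 52 in the second. A paired fit therefore added the replicate as a block, separately per stage for comparisons within a stage and for both differences of effects, and common to both stages for day 4 against MEFs.

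The alternatives were DESeq2 1.42.0, limma 3.58.1 on log2(TPM + 1), RLE scaling, no filter, a filter at 1 CPM in 2 libraries, the groups compared alone, the blocks, and each library left out in turn. The tests were also run on simulated counts for AF10 deletion in MEFs only. Those counts were drawn from the fit with a block per stage, so they cannot decide between the fits. Members and gene lists were chosen with earlier results of these data known. Beyond the members and Mllt10, the text could name, per list, comparison, fit and direction, up to 3 called genes with the lowest p, and the 6 genes of nearest profile. The design held no outlier test, since groups had 2 libraries. Some listed genes are not reported here.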

Additional observations from a re-analysis of the deposited data

Results flagged for a closer look

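The difference of the AF10 deletion effect between day 4 in DMSO and MEFs was called for 4 of the 10 genes in the paired edgeR fit. All 4 had a higher value on day 4, where 0.933% of all genes did. The difference was 1.31 ± 0.18 on the log2 scale for Oas2 (adjusted p = 1.81e-04), 0.83 ± 0.17 for Oas1a (adjusted p = 0.00945), 0.88 ± 0.22 for Dhx58 (adjusted p = 0.0413) and 0.43 ± 0.1 for Ddx58 (adjusted p = 0.032). Each was positive in both replicates, from 0.41 to 1.68. No member was called without pairing, and the Ddx58 and Dhx58 calls depended on every library compared, as given above. The change with deletion had opposite signs at the 2 stages for Oas2, at 0.56 ± 0.13 on day 4 and -0.75 ± 0.12 in MEFs, both called in the paired fit. It also had for Dhx58, at 0.33 ± 0.2 on day 4 in DMSO, which was not called, and -0.55 ± 0.1 in MEFs, which was. On day 4 in SGC0946, Dhx58 in AF10-deleted cells stood at 71.4% of the control level in the first replicate and 114.2% in the second.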

How the results depend on the processing

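Leaving the replicate block out or sharing it between stages decided most calls. For AF10 deletion in MEFs 10 members were called with a block per stage, 1 with a common block, 0 without a block and 2 by DESeq2, and leaving out 1 library gave 2 to 10 in the paired fit. With a block per stage, with a common block and without one, AF10 deletion on day 4 in DMSO gave 1, 0 and 0 calls (0 to 1 with a library left out), SGC0946 gave 1, 0 and 0 in control cells (0 to 1) and 2, 0 and 0 in AF10-deleted cells (0 to 2), both together gave 3, 1 and 0 (0 to 3), and the difference of the AF10 effect gave 4, 0 and 0 (1 to 5, and 7 with no filter). The blocked fits changed no other count of member calls. Day 4 against MEFs gave 9 to 10 calls in control cells and 8 to 9 in AF10-deleted cells with a library left out, in the fits without a block. The Oas3 log2 change of 0.18 in AF10-deleted cells was -0.004 with limma and -0.34 without the second AF10-deleted DMSO library (-0.34 to 0.55 over libraries left out), on 30.3 to 66.4 counts, and Oas2 there lost its call with the compared groups alone (adjusted p = 0.0864, edgeR). Of the single-gene values of the fit without a block, 301 kept their direction and side of the threshold under other settings, while 25 gained a call, 1 lost it and 1 reversed. With a library left out 483 kept both, 8 lost a call and 1 reversed. Losses from the paired fit are not in these counts and stand beside each result. With one library of a pair left out, the remaining pair is assumed to vary like the other groups. RLE scaling moved the median of all genes by less than 0.1 on the log2 scale. The cause of these changes was not tested.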
